A study of Homo sapiens with 6 samples.

Results

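The genes described here run the protein folding, quality control and export machinery of the endoplasmic reticulum (ER) in MM.1R, a human multiple myeloma cell line selected for resistance to glucocorticoids. The list held 54 genes, listed by name for their role. Of these, 52 were measured by probe sets naming that gene alone, out of 17534 genes measured in all. RNA came from 3 samples labelled as treated with epirubicin hydrochloride, an anthracycline given to inhibit proliferation, and from 3 labelled shCtrl, in which the cells had received a control short hairpin virus. Both groups are the same cell line in the same serum-containing medium. The labels give no dose and no duration, name the virus for the shCtrl arrays alone, and do not say whether the 3 samples of a group were separate cultures. Drug and virus therefore cannot be told apart, and any p-value reflects the scatter of these samples alone, possibly technical scatter.

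Secretory plasma cells and the myelomas that arise from them synthesise immunoglobulin in bulk and depend on ER chaperones, disulfide isomerases and degradation pathways to fold it or dispose of it. When unfolded protein accumulates, the sensors IRE1 (encoded by ERN1), ATF6 and PERK signal to the nucleus. Spliced XBP1 and cleaved ATF6 raise chaperone, translocation and ER-associated degradation genes, and PERK acts through ATF4 on genes of amino acid supply and, under prolonged stress, on the CHOP gene DDIT3. A 3' array reads total mRNA, so neither XBP1 splicing nor ATF6 cleavage was measured.

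Expression was a log2 value per probe set from PrimeView arrays. Pairs of arrays from 1 group had correlations of 0.9982 to 0.9985, and pairs from both groups 0.9945 to 0.9947. Of 10 plasma cell markers, 9 lay above 5.54, the median of all values, on every array, CD27 being the exception. Of 10 myeloid markers 3 rose (ITGAM by 3.75, CD68 by 0.63 and S100A9 by 0.53 on the log2 scale), and the list's mean over genes was 4.39 to 4.43 on epirubicin arrays and 3.85 to 3.87 on shCtrl arrays. Of these 10 myeloid markers, 5 were dimmer than the lower quartile on all arrays, CD14, LYZ and FCGR3A among them. Those named averaged 2.95, 2.52 and 1.84 on epirubicin arrays and 2.79, 2.39 and 1.85 on shCtrl arrays. The rest were not dim throughout. CSF1R averaged 5.07 in both groups, and CD68, at 7.50 on epirubicin and 6.87 on shCtrl arrays, was the 1 marker above 5.54 on all arrays. Of 10 stromal markers 2 rose (ACTA2 and FN1), with list means of 4.47 to 4.58 on epirubicin arrays and 4.16 to 4.27 on shCtrl arrays. Of 7 B cell markers 1 rose (BCL6), with list means of 6.07 to 6.09 on epirubicin arrays and 5.92 to 5.96 on shCtrl arrays. Of these 7, 3 lay above 5.54 on all arrays: PAX5, CD79B and CIITA. PAX5 averaged 9.88 on epirubicin and 9.77 on shCtrl arrays on the brightest of its 10 probe sets. The 8 markers of T and NK cells gave 0 calls in limma, with 2 at an unadjusted p under 0.05. The part of other cell types in the results was not tested. In bulk RNA, fewer cells expressing a gene and less RNA per cell cannot be told apart.

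A gene was called higher or lower at a limma adjusted p under 0.05 together with a fold change of at least 1.3. By this rule 1 of the 52 genes rose with epirubicin, against 4.36% of all genes, and 1 fell, against 2.14% of all genes. ERO1B, an oxidase that regenerates disulfide isomerases, was the gene that rose, and SDF2L1, a partner of the chaperone BiP, was the gene that fell. Most other differences were small. Of the 52, 32 (61.5%) had an adjusted p under 0.05 in limma when fold was ignored, against 29.1% of all genes. The corresponding share was 44.3% among genes brighter than 5.54 in at least 1 group, and 51 of the 52 belong to that brighter class. Of the 52 genes, 48 also had a standard error below the median of all genes. Split by direction, 22 genes (42.3%) were lower, against 13.5% of all genes, and 10 (19.2%) were higher, against 15.6% of all genes. The 3 arrays of 1 group lay entirely beyond those of the other for 43 of the 52 genes (82.7%), against 43.8% of all genes. At an unadjusted p under 0.05 in limma stood 38 of the 52 genes and 6897 of all 17534 genes. Counts at that level for single lists, given above and below, are to be read beside this share of all genes. The median difference, epirubicin minus shCtrl, was -0.08 on the log2 scale for the 52 genes and 0.02 over all genes.

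**Figure D1:**
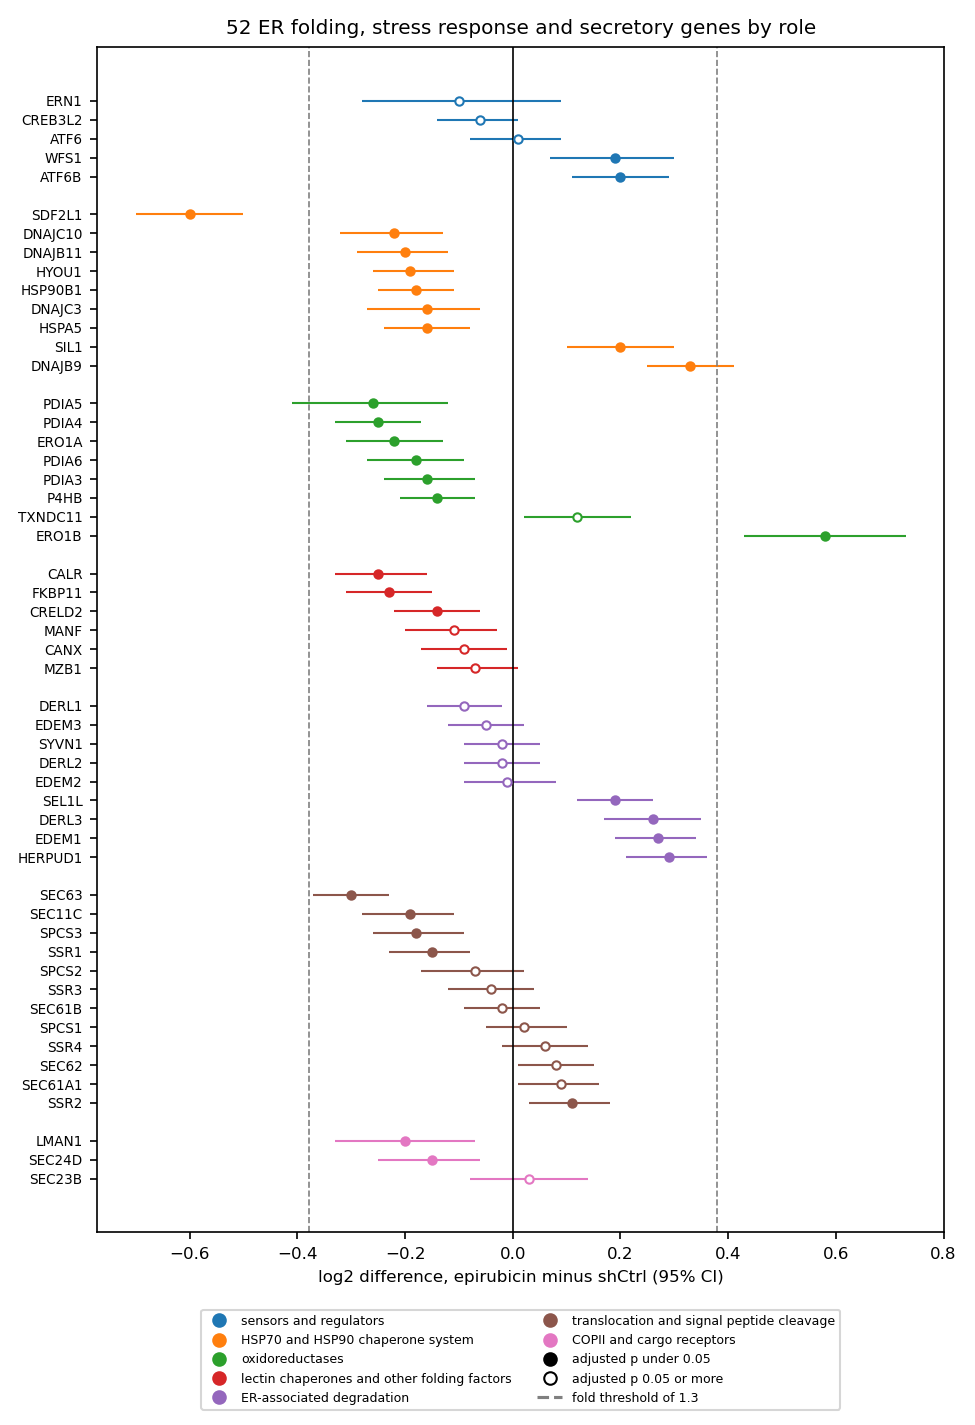
Log2 difference (epirubicin minus shCtrl, x axis) with its 95% confidence interval for each of the 52 measured genes, grouped by role. Filled points have an adjusted p under 0.05 in limma, and dashed lines mark the 1.3-fold threshold. Only SDF2L1 at -0.60 and ERO1B at 0.58 lie beyond it, with most chaperone and oxidoreductase genes between -0.26 and -0.14 and 4 degradation genes between 0.19 and 0.29.

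Some of the promoters of these genes carry motifs through which the ER stress factors are known to act, and the stretches are shown because genes on both sides of 0 share them. The ER stress response element (ERSE), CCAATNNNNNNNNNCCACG, is bound by ATF6 together with NF-Y. A shorter form, ERSE-II, reads ATTGGNCCACG, and the unfolded protein response element (UPRE), TGACGTGG, is bound by XBP1 and ATF6. Each was searched on both strands of RefSeq promoter windows of GRCh38.p14, running from 250 bases before to 50 bases after the gene start. A window was given for 49 of the 54 genes. ERSE was found in 7 of the 49 genes, against 25 of all 27305 genes with a window (0.0916%), and in 27 of all 35116 windows (0.0769%). ERSE-II was found in 3 of the 49 genes, against 19 of all genes (0.0696%), and in 19 of all windows (0.0541%). UPRE was found in 7 of the 49 genes, against 253 of all genes (0.927%), and in 256 of all windows (0.729%). HYOU1 holds 2 ERSE-II sites, and its UPRE overlaps the one further upstream, which is not the one printed. The windows were matched by gene symbol. A stretch is printed for each of the 10 genes holding an ERSE or ERSE-II, with the motif in capitals and read 5' to 3' on the gene's strand.

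The HSPA5 stretch lies at chr9:125241371-125241429 on the minus strand, with the ERSE starting 66 bases before the gene start, and that of HSP90B1 at chr12:103930301-103930359 on the plus strand, with an ERSE in the opposite orientation and another further upstream. CALR lies at chr19:12938364-12938422 (plus), CANX at chr5:179698758-179698816 (plus), CRELD2 at chr22:49918534-49918592 (plus), PDIA6 at chr2:10812833-10812891 (minus) and ERO1B at chr1:236282163-236282208 (minus). The ERSE-II stretches are those of SDF2L1 at chr22:21642094-21642144 (plus), HYOU1 at chr11:119057254-119057304 (minus) and HERPUD1 at chr16:56932005-56932055 (plus).
HSPA5: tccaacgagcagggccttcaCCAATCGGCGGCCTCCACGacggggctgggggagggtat
HSP90B1: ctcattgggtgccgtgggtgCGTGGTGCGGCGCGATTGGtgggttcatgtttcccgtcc
CALR: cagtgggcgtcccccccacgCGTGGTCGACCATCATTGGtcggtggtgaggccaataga
CANX: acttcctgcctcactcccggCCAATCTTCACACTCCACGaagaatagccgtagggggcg
CRELD2: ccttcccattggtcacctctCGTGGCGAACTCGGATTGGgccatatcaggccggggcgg
PDIA6: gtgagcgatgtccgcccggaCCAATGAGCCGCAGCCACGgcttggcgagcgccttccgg
ERO1B: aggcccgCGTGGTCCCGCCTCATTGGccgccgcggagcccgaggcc
SDF2L1: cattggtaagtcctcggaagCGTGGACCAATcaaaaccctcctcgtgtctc
HYOU1: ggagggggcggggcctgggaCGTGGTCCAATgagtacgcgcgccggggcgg
HERPUD1: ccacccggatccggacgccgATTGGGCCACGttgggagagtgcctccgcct

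These 10 genes did not move as one. Their median log2 difference was -0.17, and 8 of the 10 lay below 0. ERO1B, with an ERSE, was the gene called higher, and SDF2L1, with an ERSE-II, the gene called lower. HERPUD1, with an ERSE-II that matches in the gene's own orientation, was higher under the fold threshold, and the remaining genes lay between -0.25 and -0.09. A motif match describes the letters of the window and shows no binding.

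Of the sensors and regulators, 0 of 5 were called (limma; 2 of 5 at an unadjusted p under 0.05). ERN1, the gene of the IRE1 kinase and nuclease, had log2 values of 5.17, 5.37 and 5.07 on epirubicin arrays, against 5.29, 5.26 and 5.35 on shCtrl arrays. The 2 groups overlapped, with a difference of -0.10 (95% CI -0.28 to 0.09, limma adjusted p = 0.419). The ERN1 means of 5.20 on epirubicin and 5.30 on shCtrl arrays lay below 5.54, in the dimmer range of the array. ATF6, the membrane-bound transcription factor released by cleavage, read 8.85, 8.91 and 8.83 on epirubicin arrays, against 8.87, 8.85 and 8.85 on shCtrl arrays. Its groups overlapped as well, and the interval of its difference, -0.08 to 0.09, lay within the fold threshold of 0.38. CREB3L2, a related transcription factor activated by cleavage, differed by -0.06 (CI -0.14 to 0.01) on the brightest of its 7 probe sets. The 7 ranged from -0.27 to 0.08. Those at -0.27 and -0.19, both much dimmer than the brightest, had limma adjusted p of 0.0266 and 0.0113 over probe sets. ATF6B, the ATF6 paralogue, was higher under the fold threshold by 0.20 (CI 0.11 to 0.29, limma adjusted p = 0.00769), as was WFS1, an ER membrane protein of calcium handling, by 0.19 (CI 0.07 to 0.30, limma adjusted p = 0.0251).

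XBP1, the transcription factor downstream of IRE1 and not a member of the list, read 11.61, 11.57 and 11.60 on epirubicin arrays, against 11.84, 11.83 and 11.84 on shCtrl arrays. All 3 epirubicin arrays were below all 3 shCtrl arrays, and the difference of -0.24 (CI -0.31 to -0.17, limma adjusted p = 0.00145) was under the fold threshold. Of 13 sensor and output genes measured outside the member list, XBP1 included, 3 rose and 0 fell, with 7 at an unadjusted p under 0.05. DDIT3, which encodes the stress transcription factor CHOP, read 6.85, 7.0 and 7.02 on epirubicin arrays, against 5.40, 5.33 and 5.53 on shCtrl arrays, a 2.90-fold increase (log2 1.54, CI 1.38 to 1.70, limma adjusted p = 3.45e-05) found on both of its probe sets. BBC3, the gene of the cell death protein PUMA and also a textbook p53 target, read 8.70, 8.84 and 8.83 on epirubicin arrays, against 7.04, 6.99 and 7.12 on shCtrl arrays, and rose 3.34-fold (limma adjusted p = 9.38e-06). PPP1R15A, the GADD34 subunit that dephosphorylates eIF2alpha, rose 1.79-fold and is named to complete the count. The PERK gene EIF2AK3 differed by -0.11 and ATF4 by 0.18, neither called.

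Genes of the BiP chaperone system were mostly lower. Of 9, 1 fell and 0 rose, and ignoring fold 7 were lower and 2 higher at an adjusted p under 0.05. SDF2L1, which forms a complex with the J-domain cochaperone encoded by DNAJB11, read 9.28, 9.41 and 9.37 on epirubicin arrays, against 9.94, 9.93 and 9.97 on shCtrl arrays. No epirubicin array was above 9.41 and no shCtrl array below 9.93. It fell 1.51-fold, by 0.60 on the log2 scale (CI -0.70 to -0.50, limma adjusted p = 0.000175), on its single probe set. HSPA5, the gene of BiP, the central HSP70 chaperone of the ER, read 11.70, 11.68 and 11.69 on epirubicin arrays, against 11.85, 11.89 and 11.82 on shCtrl arrays. The groups did not overlap, and the epirubicin level was 89.5% of the shCtrl level (log2 -0.16, CI -0.24 to -0.08, limma adjusted p = 0.0115), a difference under the fold threshold. All 6 HSPA5 probe sets pointed the same way, from -0.26 to -0.15.

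The other chaperones of that system differed by similar amounts. HSP90B1, the ER form of HSP90 known as GRP94, stood at 88.2% of its shCtrl level and was below 0 on all 7 probe sets. HYOU1, a large HSP70 relative that exchanges nucleotide on BiP, stood at 87.8%, with its 9 probe sets between -0.35 and -0.12. The J-domain cochaperones DNAJB11 and DNAJC3 stood at 86.9% and 89.3%. DNAJC10, a J-domain protein that is also a disulfide reductase, read 9.75, 9.63 and 9.68 on epirubicin arrays, against 9.91, 9.91 and 9.91 on shCtrl arrays, so that its groups did not overlap.

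The exceptions were 2 regulators of BiP. DNAJB9 (ERdj4), a J-domain protein that represses IRE1 through BiP and serves degradation, read 10.63, 10.61 and 10.56 on epirubicin arrays, against 10.24, 10.27 and 10.28 on shCtrl arrays. All epirubicin arrays were above all shCtrl arrays, with a difference of 0.33 (CI 0.25 to 0.41, limma adjusted p = 0.000735) that stayed under the fold threshold on the brightest of 3 probe sets. Its second probe set was called higher at 0.43, and its dimmest differed by 0.06. SIL1, a nucleotide exchange factor of BiP, was higher by 0.20 (CI 0.10 to 0.30, limma adjusted p = 0.0119), also under the threshold.

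**Figure D2:**
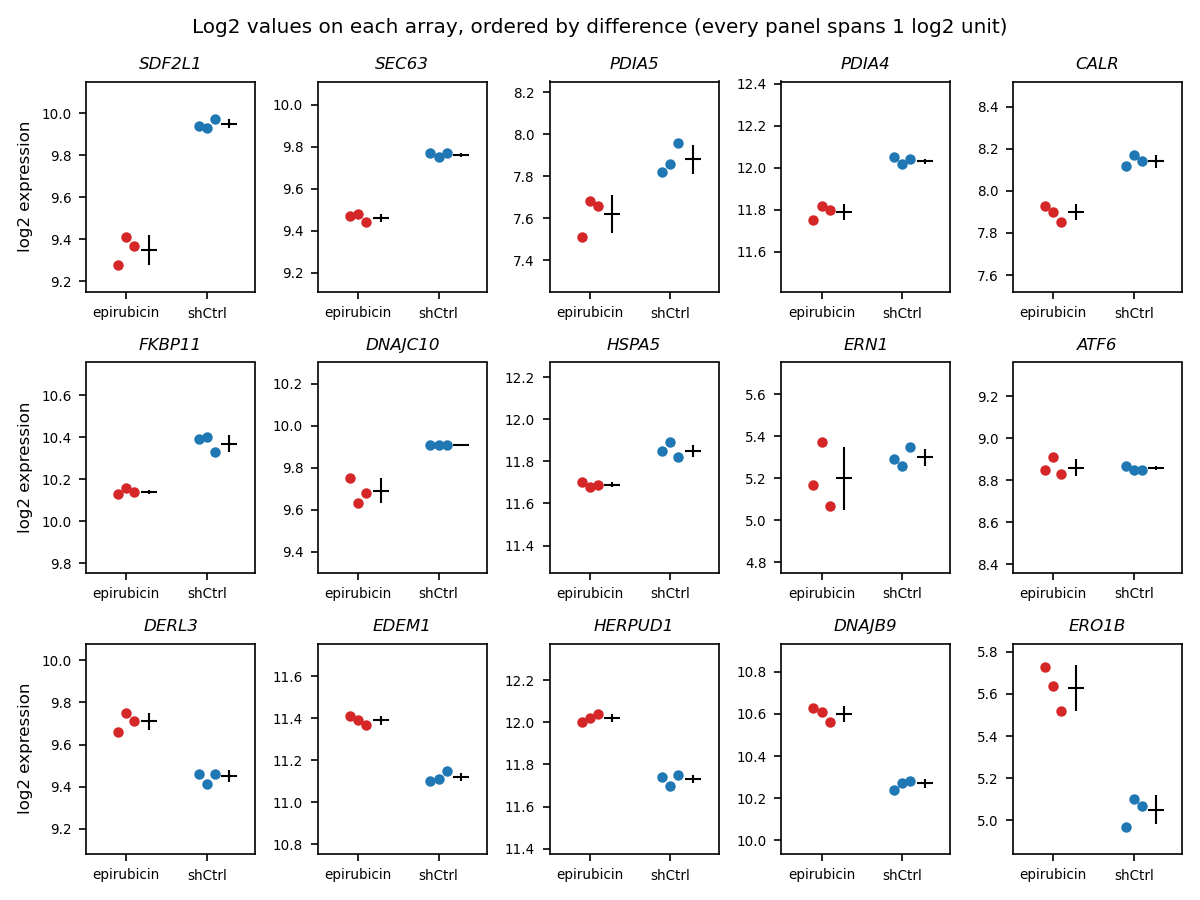
Log2 expression (y axis) on each of the 3 epirubicin arrays (red, left) and 3 shCtrl arrays (blue, right) for the measured genes of the ER list whose single arrays are given in the text, ordered by their difference, with black bars for the mean and SD. Every panel spans 1 log2 unit: SDF2L1 lies 0.60 lower and ERO1B 0.58 higher with epirubicin, and the 2 groups overlap only for ERN1 and ATF6.

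Among the oxidoreductases, which form and rearrange disulfide bonds, 1 of 8 rose and 0 fell. Ignoring fold, 6 were lower and 1 higher at an adjusted p under 0.05. ERO1B read 5.73, 5.64 and 5.52 on epirubicin arrays, against 4.97, 5.10 and 5.07 on shCtrl arrays. The lowest epirubicin array lay above the highest shCtrl array, and the gene rose 1.5-fold (log2 0.58, CI 0.43 to 0.73, limma adjusted p = 0.000941). Of its 4 probe sets 3 were called higher, the dimmest differed by -0.07, and all shCtrl values of the brightest lay below 5.54, in the dimmer range of the array. As a mean over the 4 probe sets ERO1B differed by 0.35, short of the fold threshold. Its paralogue ERO1A, a hypoxia-responsive oxidase of the same reaction, was lower instead, at 85.8% of its shCtrl level (log2 -0.22, CI -0.31 to -0.13, limma adjusted p = 0.00664) and under the fold threshold.

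The 5 measured disulfide isomerases of the list, PDIA3, PDIA4, PDIA5, PDIA6 and P4HB, were lower by small amounts. PDIA4 (ERp72) read 11.75, 11.82 and 11.80 on epirubicin arrays, against 12.05, 12.02 and 12.04 on shCtrl arrays. PDIA5 read 7.51, 7.68 and 7.66 on epirubicin arrays, against 7.82, 7.86 and 7.96 on shCtrl arrays. In both genes the groups did not overlap, with log2 differences of -0.25 (CI -0.33 to -0.17) and -0.26 (CI -0.41 to -0.12). PDIA6 stood at 88.4% of its shCtrl level, PDIA3 (ERp57), the partner of the lectin chaperones, at 89.8%, and P4HB, the classical PDI, at 90.7%. PDIA3 and PDIA4 each had 1 dimmer probe set called lower, at -0.40 and -0.38. TXNDC11, a partner of the degradation lectins, gave opposite readings: its brighter probe set differed by 0.12 (limma adjusted p = 0.0813 over genes), and its other probe set was called lower at -0.77 (limma adjusted p = 0.00259 over probe sets). The mean of both was -0.32, and which one reflects the gene was not tested. TXNDC5 is covered by 2 probe sets that also name a read-through transcript, so it was not analysed here.

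Calreticulin and its companions differed in the same direction without a call. Of 6 lectin chaperones and other folding factors, 0 were called (limma; 5 of 6 at an unadjusted p under 0.05), 3 were lower at an adjusted p under 0.05 when fold was ignored, and all 6 differences lay below 0, from -0.25 to -0.07. CALR, the soluble lectin chaperone calreticulin, read 7.93, 7.90 and 7.85 on epirubicin arrays, against 8.12, 8.17 and 8.14 on shCtrl arrays. FKBP11, a prolyl isomerase abundant in antibody-secreting cells, read 10.13, 10.16 and 10.14 on epirubicin arrays, against 10.39, 10.40 and 10.33 on shCtrl arrays. Neither gene's groups overlapped, and the levels were 84.2% and 85.2% of shCtrl. CRELD2, an ER stress-inducible secreted protein, stood at 90.7%. CANX, the membrane-bound lectin calnexin, MANF, a stress-inducible neurotrophic factor that binds BiP, and MZB1, a plasma cell cochaperone of GRP94, differed by -0.09, -0.11 and -0.07 with limma adjusted p of 0.101, 0.0579 and 0.156. For CANX all 9 probe sets lay below 0, from -0.19 to -0.09, the brightest having the smallest difference. The 2 at -0.19 had limma adjusted p of 0.0145 and 0.0113 over probe sets, under the fold threshold.

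Genes of ER-associated degradation return misfolded protein to the cytosol for the proteasome. On their brightest probe sets 4 lay above 0 and 5 below it, the latter from -0.09 to -0.01. Of 9, 0 were called (limma; 5 of 9 at an unadjusted p under 0.05), and at an adjusted p under 0.05 with fold ignored 4 were higher and 0 lower. HERPUD1, a stress-inducible scaffold of the HRD1 ubiquitin ligase complex, read 12, 12.02 and 12.04 on epirubicin arrays, against 11.74, 11.70 and 11.75 on shCtrl arrays. EDEM1, a mannosidase-like lectin that selects glycoproteins for disposal, read 11.41, 11.39 and 11.37 on epirubicin arrays, against 11.10, 11.11 and 11.15 on shCtrl arrays. DERL3, a derlin of secretory cells, read 9.66, 9.75 and 9.71 on epirubicin arrays, against 9.46, 9.41 and 9.46 on shCtrl arrays. In all 3 genes every epirubicin array lay above every shCtrl array, at 122.2%, 120.4% and 120.0% of the shCtrl level. The log2 differences were 0.29 for HERPUD1 (CI 0.21 to 0.36), 0.27 for EDEM1 (CI 0.19 to 0.34) and 0.26 for DERL3 (CI 0.17 to 0.35), all under the fold threshold, with limma adjusted p of 0.000884, 0.00122 and 0.00258. Over all their probe sets the differences ranged from 0.04 to 0.29 for HERPUD1, from -0.02 to 0.27 for EDEM1 and from 0.10 to 0.27 for DERL3.

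SEL1L, the adaptor of the HRD1 ligase, was higher by 0.19 (CI 0.12 to 0.26, limma adjusted p = 0.00418) on the brightest of its 4 probe sets, which ranged from 0.05 to 0.22. Its ligase partner SYVN1, which encodes HRD1 itself, differed by -0.02 (CI -0.09 to 0.05). EDEM2 and EDEM3 differed by -0.01 and -0.05, and the derlins DERL1 and DERL2 by -0.09 and -0.02, with limma adjusted p of 0.0611 to 0.899. For DERL1 (CI -0.16 to -0.02) and EDEM3 (CI -0.12 to 0.02) every epirubicin array lay below every shCtrl array. All 5 EDEM3 probe sets lay below 0, from -0.22 to -0.05, the brightest having the smallest difference. Those at -0.22 and -0.16 had limma adjusted p of 0.0186 and 0.0445 over probe sets, under the fold threshold. Of 19 other degradation genes measured, 0 were called (limma; 9 at an unadjusted p under 0.05), and with fold ignored 2 were higher and 6 lower. Examples chosen after their values were seen are HERPUD2, the HERPUD1 paralogue, at 0.34 and VCP, the ATPase that extracts substrates, at -0.26.

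Translocation and signal peptide cleavage genes stayed within the fold threshold. Of 12, 0 were called (limma; 7 at an unadjusted p under 0.05), and with fold ignored 4 were lower and 1 higher at an adjusted p under 0.05. SEC63, the J-domain protein that recruits BiP to the translocon, had the largest difference of the 12. It read 9.47, 9.48 and 9.44 on epirubicin arrays, against 9.77, 9.75 and 9.77 on shCtrl arrays, with no overlap and a difference of -0.30 (CI -0.37 to -0.23, limma adjusted p = 0.000659). Its partner SEC62 differed by 0.08 on the brightest of 9 probe sets, which ranged from -0.26 to 0.08. The channel subunits SEC61A1 and SEC61B differed by 0.09 and -0.02, and SEC61G was not analysed here.

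Of the translocon-associated TRAP complex, SSR1 was lower (-0.15, CI -0.23 to -0.08) and SSR2 higher (0.11, CI 0.03 to 0.18) at limma adjusted p of 0.0123 and 0.0436, and SSR3 and SSR4 differed by -0.04 and 0.06. In the signal peptidase, SPCS3 and the catalytic subunit SEC11C stood at 88.5% and 87.6% of shCtrl, while SPCS1 and SPCS2 differed by 0.02 and -0.07. The point values of 1 complex thus lay on both sides of 0, but the intervals of SSR3, SSR4, SPCS1 and SPCS2 included 0 on their brightest probe sets. All 4 SSR3 probe sets lay below 0, from -0.21 to -0.04, the one at -0.21 with a limma adjusted p of 0.0077 over probe sets. The 2 probe sets of SSR2 had limma adjusted p of 0.068 and 0.0748 over probe sets. The signal recognition particle and its receptor, upstream of the channel, had 0 of 8 genes called (limma; 4 at an unadjusted p under 0.05) and 4 lower with fold ignored. SRPRB, the receptor's beta subunit, named after its value was seen, lay close to the threshold at -0.36. Of 12 oligosaccharyltransferase genes, which attach N-glycans, 0 were called (5 at an unadjusted p under 0.05, limma), with a median of -0.05.

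Of the export genes, 0 of 3 were called (limma; 2 at an unadjusted p under 0.05). LMAN1 (ERGIC-53), a lectin cargo receptor, stood at 87.0% of its shCtrl level on its brightest probe set (log2 -0.20, CI -0.33 to -0.07, limma adjusted p = 0.0316). Its 6 probe sets ranged from -0.44 to -0.20, and 2 of them were called lower. SEC24D, a cargo-binding subunit of the COPII coat, was lower under the fold threshold (-0.15, CI -0.25 to -0.06), and the coat subunit SEC23B, a gene of congenital dyserythropoietic anaemia, differed by 0.03 (CI -0.08 to 0.14). Of 25 other COPII and cargo receptor genes, 0 were called (limma; 12 at an unadjusted p under 0.05), with a median of -0.05.

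Over all 174 probe sets of the 52 genes, 4 were called higher, against 3.65% of all 47481 probe sets, and 6 lower, against 2.62%. These shares are 2.30% and 3.45% of the 174. At this level 2 genes had a probe set called higher (DNAJB9 and ERO1B) and 5 had at least 1 called lower (LMAN1 with 2, and PDIA3, PDIA4, SDF2L1 and TXNDC11 with 1 each). Of the 42 genes with 2 or more probe sets, 33 had all of them on the same side of 0.

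**Figure D3:**
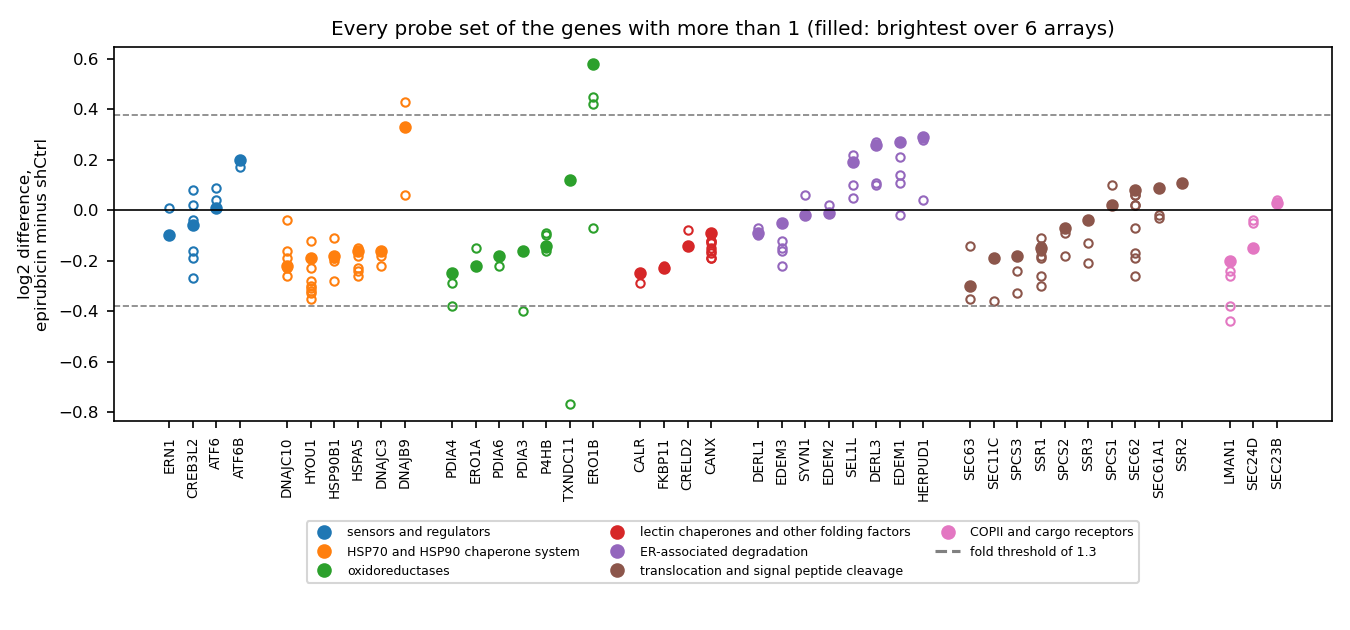
Log2 difference (epirubicin minus shCtrl, y axis) of every probe set of the 42 genes with more than 1, by role, with the brightest probe set filled and the others open. The probe sets of HSPA5, HSP90B1, HYOU1 and CANX all lie below 0, those of DERL3 and HERPUD1 above it, and TXNDC11 spans -0.77 to 0.12.

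Paralogues were compared on the same arrays by the difference of their log2 values, so that anything shared by an array cancels. The gap between ERO1B and ERO1A changed by 0.80 between epirubicin and shCtrl arrays (CI 0.68 to 0.93), that between DERL3 and DERL1 by 0.35 (CI 0.27 to 0.43) and that between EDEM1 and EDEM3 by 0.32 (CI 0.26 to 0.37). The gap between ATF6 and ATF6B changed by -0.20 (CI -0.27 to -0.12), between SEC23B and SEC23A by 0.19 (CI 0.11 to 0.26) and between PDIA4 and PDIA6 by -0.07 (CI -0.12 to -0.01). In these 6 pairs the groups did not overlap. Each had an exact two-sided permutation p = 0.1, the smallest that 3 against 3 arrays allow, or 0.117 when adjusted over the 7 pairs. The gaps are built from the same array values as the single-gene differences, so they are no separate evidence. The gap between SEC24D and SEC24A changed by 0.00 (CI -0.08 to 0.08, exact permutation p = 1). With means over probe sets the gap was 0.53 for ERO1B and ERO1A, 0.16 for SEC24D and SEC24A and -0.11 for PDIA4 and PDIA6, the last being -0.13 with quantile normalization.

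The ER genes were set beside heat shock chaperones of the cytosol and mitochondria and ATF4 targets, which answer neighbouring stress pathways. Of 20 heat shock genes measured, which include the mitochondrial chaperonin genes HSPD1 and HSPE1, 0 rose and 7 fell, HSPE1 among them, with a median of -0.30, and the HSP90 cochaperones CHORDC1 and FKBP4 had the largest decreases at -0.62 and -0.57. Of 24 ATF4 target genes 7 rose and 1 fell, with a median of 0.17. SESN2, a repressor of mTORC1 and also a p53 target, led the increases at 3.24-fold, followed by the transcription factor gene ATF5 at a log2 change of 0.68. The amino acid transporter gene SLC7A5 fell by 0.40 on the log2 scale, a call lost with quantile normalization (-0.38) and with means of probe sets (-0.25). The ER list's median of -0.08 lay between these, but no difference between the lists was tested. In the other ER folding lists, CLGN, a calnexin relative best known from testis, rose 1.75-fold on all 5 of its probe sets. It read 8.21, 8.19 and 8.20 on epirubicin arrays, against 7.41, 7.38 and 7.39 on shCtrl arrays. PPIC, the gene of cyclophilin C, an isomerase of the secretory pathway, read 6.12, 5.99 and 6.06 on epirubicin arrays, against 5.53, 5.39 and 5.31 on shCtrl arrays. It rose 1.57-fold, with 3 of its 4 probe sets called higher. They were the only genes called among 22 further oxidoreductases and isomerases and 10 glucosidases and lectins. The 10 wider secretory and stress lists together had 5 of 149 genes called higher, against 4.36% of all genes, and 0 lower, against 2.14%. An unadjusted p under 0.05 was found in limma for 75 of the 149 and for 6897 of all 17534 genes.

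**Figure D4:**
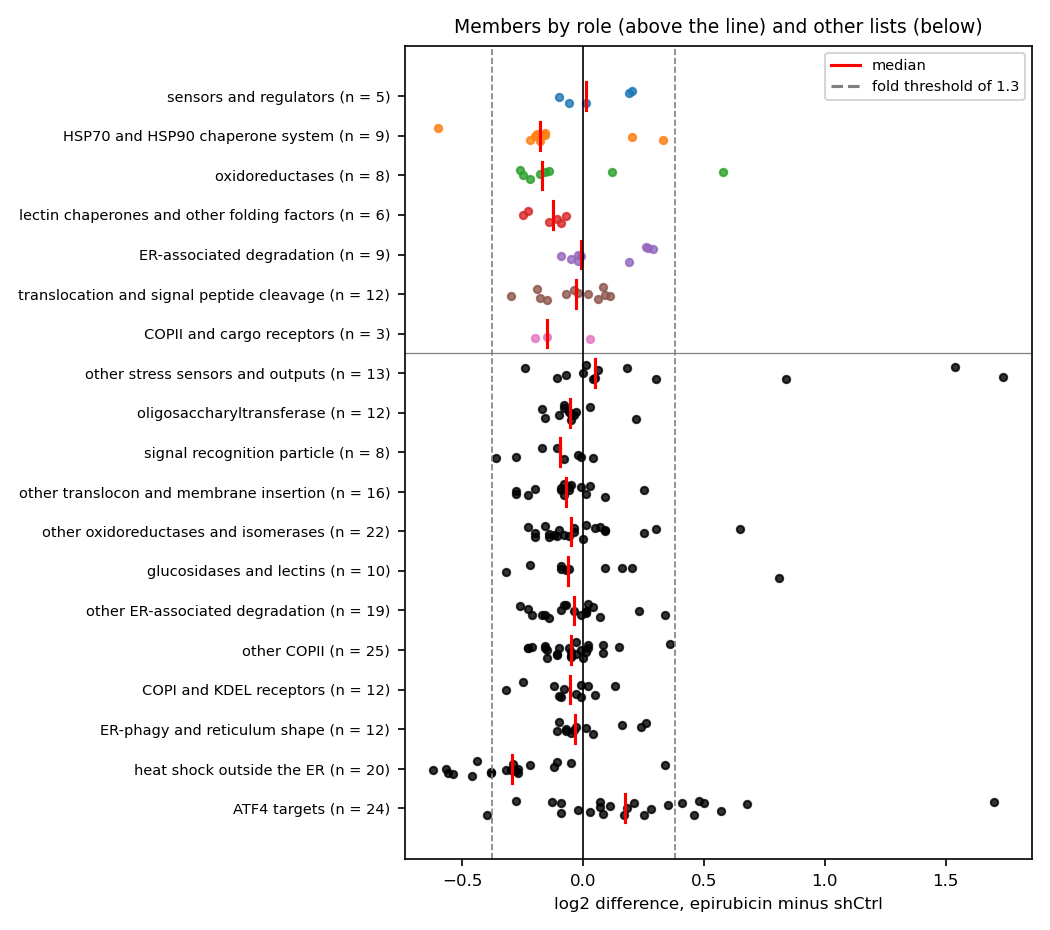
Log2 difference (epirubicin minus shCtrl, x axis) of single genes, as points, for the 52 genes by role above the line and for the other lists below it, with red bars for medians and dashed lines for the 1.3-fold threshold. Chaperones and oxidoreductases have medians of -0.18 and -0.17, heat shock genes outside the ER -0.30 and ATF4 targets 0.17, and DDIT3, PPP1R15A and BBC3 stand apart among the other stress outputs.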

How the data were processed

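The authors deposited a table of 47481 probe sets by 6 arrays, whose range (1.41 to 13.73) is that of log2 intensity. The submitters' processing notes name affy; how background, scaling and probe summary were handled is not given in the sources used here. No further normalization was applied to arrays whose medians were 5.52 to 5.57. Differences are relative to the bulk of transcripts. The number of arrays limits the precision.

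Groups and replicate numbers came from the sample titles. Probe sets naming 1 gene (43976, of which 43954 matched RefSeq of GRCh38.p14 by Entrez number) were used, the brightest over 6 arrays standing for its gene. All genes entered a single fit (limma 3.58.1, R 4.3.3) with Benjamini-Hochberg adjustment, at the fold and FDR thresholds of the series' design text, after tests on simulated data. Per-array values are given for the called members, the 12 members with the largest differences, HSPA5, ERN1, ATF6 and XBP1; other lists name up to 2 called genes per direction, and further names are marked in the text. Alternatives covered probe-set choice, scaling, dim genes, the variance prior, fold threshold, replicate block and each array left out. The members and lists were chosen with earlier results of these data known. Protein sequences were not used here.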

Additional observations from a re-analysis of the deposited data

How the results depend on the processing

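SDF2L1 kept its call under every alternative run, and ERO1B under all but 2: the mean of probe sets (0.35) and a fold of at least 1.5. With no fold threshold 10 members were higher and 22 lower, against 2744 and 2362 of all genes and 19 and 35 of the wider lists. At a fold of at least 1.5, 0 members and 320 genes were higher and 101 genes lower. With any probe set of a gene, 2 members were higher and 5 lower, and with means of probe sets 0 were higher. Of the wider lists 1 gene was lower with means of probe sets (KDELR1) and with median centring (SRPRB). Leaving out 1 array each gave 0 to 1, SRPRB without shCtrl replicate 1. Arrays of the same number did not deviate together over all genes (r = -0.06, 0.00 and -0.01). The labels do not say whether equal numbers pair samples, and these correlations cannot exclude it, because they pool the scatter of all genes. The replicate block left 1 member called in each direction, and members with an adjusted p under 0.05 numbered 8 higher and 17 lower. Over the 32 members with an adjusted p under 0.05 the sign was kept under every alternative. SLC7A5 lost its call with means of probe sets (-0.25) and quantile normalization (-0.38). With means of probe sets the paralogue gaps were 0.53 for ERO1B and ERO1A, -0.14 for ATF6 and ATF6B, -0.11 for PDIA4 and PDIA6, 0.28 for EDEM1 and EDEM3, 0.27 for DERL3 and DERL1, 0.24 for SEC23B and SEC23A and 0.16 for SEC24D and SEC24A. With quantile normalization those of PDIA4 and PDIA6 and of EDEM1 and EDEM3 were -0.13 and 0.35. The cause of these shifts was not tested.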

Other observations

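Genes of retrieval and of ER turnover, not described above, were also uncalled. Of 12 genes of the COPI coat and the KDEL receptors, which return escaped chaperones from the Golgi, 0 were called (limma; 6 at an unadjusted p under 0.05), and KDELR1, chosen after its value was seen, lay at -0.32. Of 12 genes of ER-phagy and reticulum shape 0 were called (limma; 4 at an unadjusted p under 0.05). The ER-phagy receptor gene CCPG1 and the related receptor gene CALCOCO1, also chosen after their values were seen, were higher under the fold threshold at 0.24 and 0.26. Of 16 other translocon and membrane insertion genes 0 were called (limma; 9 at an unadjusted p under 0.05), with a median of -0.07.

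Plasma cell markers outside the ER list gave a mixed picture. The transcription factor gene IRF4 was the 1 of 10 called, and fell 1.40-fold. JCHAIN, the joining chain of secreted polymeric immunoglobulin, averaged 13.27 on both epirubicin and shCtrl arrays (difference 0.01). With fold ignored, 2 of the 10 were higher and 3 lower at an adjusted p under 0.05 in limma, IRF4 among the lower. The surface receptor gene SLAMF7 and the coactivator gene POU2AF1, named after their values were seen, were higher under the fold threshold at 0.23 and 0.25. The transcription factor genes PRDM1 and XBP1 were lower under it, at -0.12 and -0.24.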
